A study of Mus musculus with 12 samples.

Results

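The genes described here belong to the amino acid response and to serine and one-carbon metabolism. They are 40 genes: transcription factors of the response, their targets, enzymes of serine, folate, proline and branched-chain amino acid metabolism, and amino acid carriers. The members were chosen by symbol, as the probe sets that the array annotation assigned to exactly 1 gene, with the probe set of highest mean over the 12 arrays kept for each gene. A probe set was found for 39 of the 40 (Pycr1, the last enzyme of proline synthesis, had none and was not analysed here), out of 18193 genes on the array, and all 39 were among the 15420 genes tested.

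Gene expression was measured in mouse cells on Affymetrix 430 2.0 arrays in 4 groups of 3. Mbd2-/- T-ALL and Mbd2+/+ T-ALL cells (called knockout and wild-type T-ALL here) were GFP+ bone marrow cells of mice with Notch1-driven T-cell acute lymphoblastic leukaemia. They were sorted from transplant recipients once over 50% of the white blood cells in blood were GFP+. Mbd2-/- and Mbd2+/+ DP cells (knockout and wild-type DP) were CD4+CD8+ double-positive thymocytes sorted from mice at steady state. Mbd2 encodes a protein that binds methylated DNA and recruits repressor complexes, and its deletion in the knockout groups is given by the genotype label with no promoter or Cre named. The labels give no age or sex and do not say that the 3 samples of a group came from separate animals, and the p-values therefore reflect variation among these samples alone, which may be technical. In bulk RNA, fewer cells of a type and less RNA per cell cannot be told apart.

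When amino acids run short, uncharged tRNA activates the kinase GCN2, which phosphorylates the translation factor eIF2 alpha. General translation then falls while translation of the transcription factor ATF4 rises, and ATF4, paired with C/EBP family proteins, induces genes for amino acid synthesis, amino acid import and tRNA charging. Serine made from a glycolytic intermediate passes its side-chain carbon to folate, and the folate enzymes of mitochondria and cytosol supply the carbon for purine and thymidylate synthesis. Proliferating T cells and T-cell leukaemias are known to depend on both supplies, and lymphoid leukaemia is treated with asparaginase, an enzyme that removes asparagine from blood.

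Values are intensities on a linear scale, and log2 differences were taken on log2(intensity + 16). The brightest control probe set without a target gave 35.3, and levels below it cannot be told from background. By this measure 26 members were above background on all 12 arrays, 9 on some arrays and 4 (Atf3, Nupr1, Vldlr and Cth) on none. Mbd2 itself was at 41.4, 55.7 and 66.0 in knockout T-ALL, against 957, 742 and 762 in wild-type T-ALL, and at 67.6, 84.3 and 64.4 in knockout DP, against 1372, 993 and 1043 in wild-type DP. All 5 T-lineage markers measured were above background on every array. Of the 6 CD4+CD8+ thymocyte markers, Rag1 was at or under background in knockout T-ALL. Their summed level was 3629 to 5041 in knockout T-ALL and 7929 to 10565.5 in wild-type T-ALL. It was 32180 to 43293 in knockout DP and 34054 to 44310 in wild-type DP. The log2 difference between knockout and wild-type T-ALL was -1.39 for Cd4, -3.70 for Cd8a, -5.57 for Cd8b1 and -5.08 for Ptcra. The mast cell gene Cpa3 and Kit brought the summed level of the mast cell markers to between 7684 and 9174 in knockout T-ALL, against 97.2 to 108 in wild-type T-ALL, while Mcpt4, Tpsb2, Cma1 and Fcer1a were at or under background there. The summed level of 6 neutrophil markers was 196 to 712 in knockout T-ALL and 879 to 1755 in wild-type T-ALL. It was 148 to 386 in knockout DP and 136 to 356 in wild-type DP. That of 5 B cell markers was 829 to 1092 in knockout T-ALL and 2029 to 2688 in wild-type T-ALL. It was 6488 to 6890 in knockout DP and 6181 to 7651 in wild-type DP. Cd79a, Ms4a1 and Pax5 were at or under background in every group. That of 6 thymic epithelium markers was 358 to 610 in knockout T-ALL and 204 to 270 in wild-type T-ALL. It was 240 to 294 in knockout DP and 245 to 271 in wild-type DP. The summed level of 4 erythroid markers was 185 to 226 in knockout T-ALL, against 90.9 to 109 in knockout DP, and 226 to 252 in wild-type T-ALL, against 89.6 to 115 in wild-type DP, with Hba-a1 at or under background in every group. The part of these other cells' RNA in the differences between the leukaemias, or between leukaemia and thymocyte, was not tested.

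**Figure D1:**
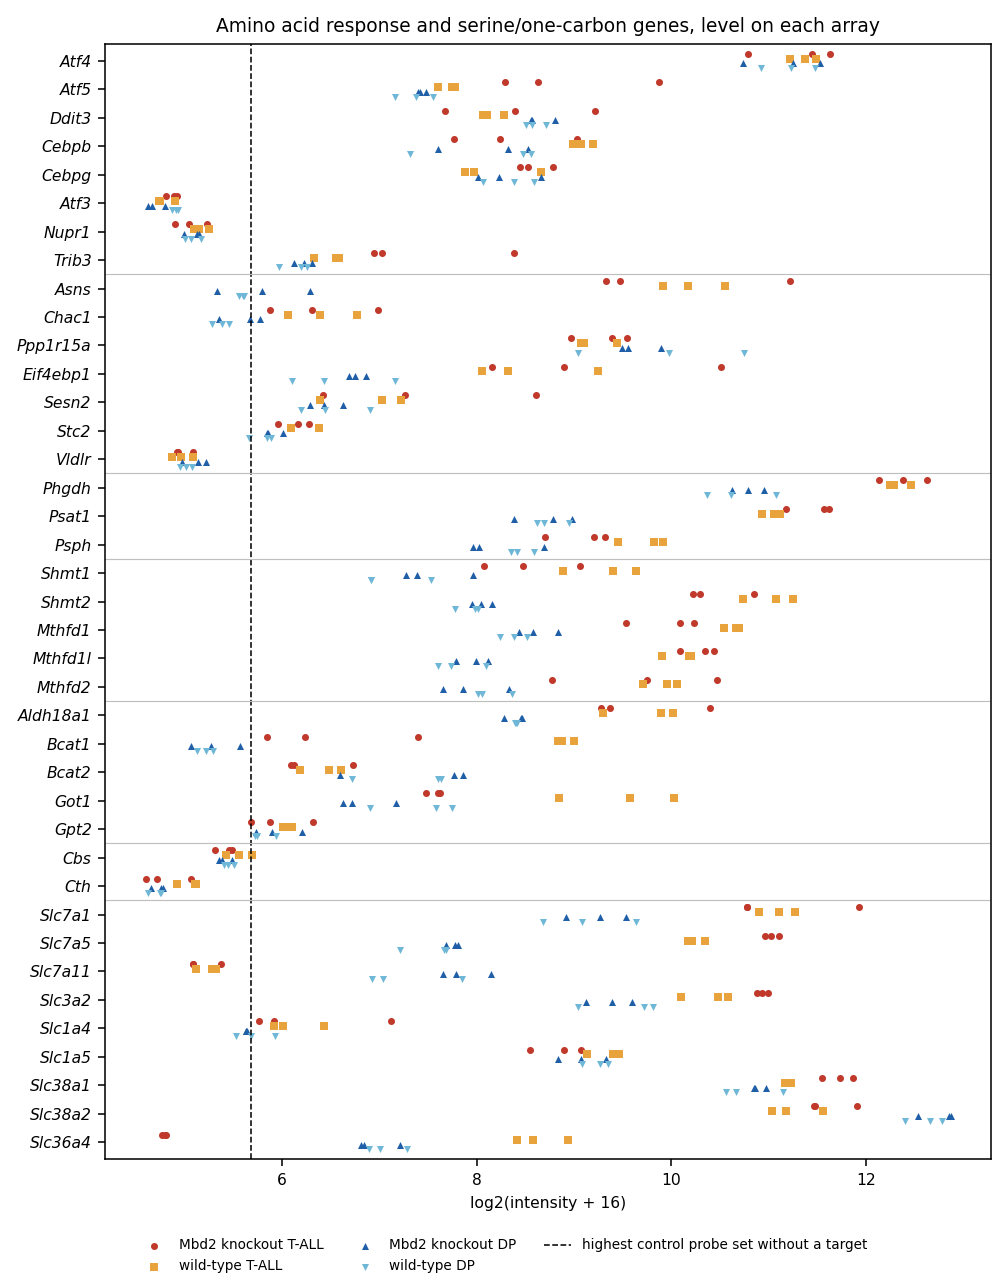
Level of each of the 39 members on every array, as log2(intensity + 16) on the x axis, with genes by role down the y axis and 1 point per array. Points of both leukaemias lie to the right of both thymocyte groups for the serine and folate enzymes, and Slc7a11 shows the opposite order.

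The leukaemias were set against the thymocytes of the same genotype first, since most members differed there. All 8 serine synthesis and folate enzymes were higher in both leukaemias, together with Asns and the carriers Slc7a1, Slc7a5 and Slc3a2. In knockout T-ALL 18 members were higher and 3 lower than in knockout DP, where 18.5% of all genes tested were higher and 11% lower (29.4% in either direction). In wild-type T-ALL 20 members were higher and 4 lower than in wild-type DP, where 19.7% of all genes tested were higher and 14.2% lower (33.9% in either direction). At an unadjusted p under 0.05, 24 members differed in knockout cells, beside 38.5% of all genes, and 30 in wild-type cells, beside 41.8%. The arrays of leukaemia and thymocytes did not overlap for 22 members above and 3 below in knockout cells, beside 24.4% and 17.7% of all genes. In wild-type cells they did not overlap for 25 above and 4 below, beside 27.6% and 18%. The median log2 difference of the 39 members was 0.79 in knockout cells, beside 0.01 for all genes tested, and 0.48 in wild-type cells, beside 0.06. A difference counts as higher or lower at a Benjamini-Hochberg adjusted p under 0.05 in limma.

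Of the members, 15 were higher in both leukaemias and 2 (Slc7a11 and Slc38a2) were lower in both, and 1 (Slc36a4) was lower in knockout T-ALL and higher in wild-type T-ALL. The comparisons with thymocytes share no arrays between genotypes, but each shares its leukaemia arrays with the comparison of genotypes. With the probe sets of highest mean, Atf5, Trib3 and Slc38a1 passed in the knockout comparison alone, and Ddit3, Chac1, Stc2, Bcat1, Bcat2 and Cth in the wild-type comparison alone. A call in 1 genotype alone does not show a difference between genotypes, and only Slc36a4 and Bcat1 of these 10 genes passed the test of that difference given further on. Both leukaemias and both thymocyte groups were under background for Cth, a transsulfuration enzyme, and its level gives no fold.

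**Figure D2:**
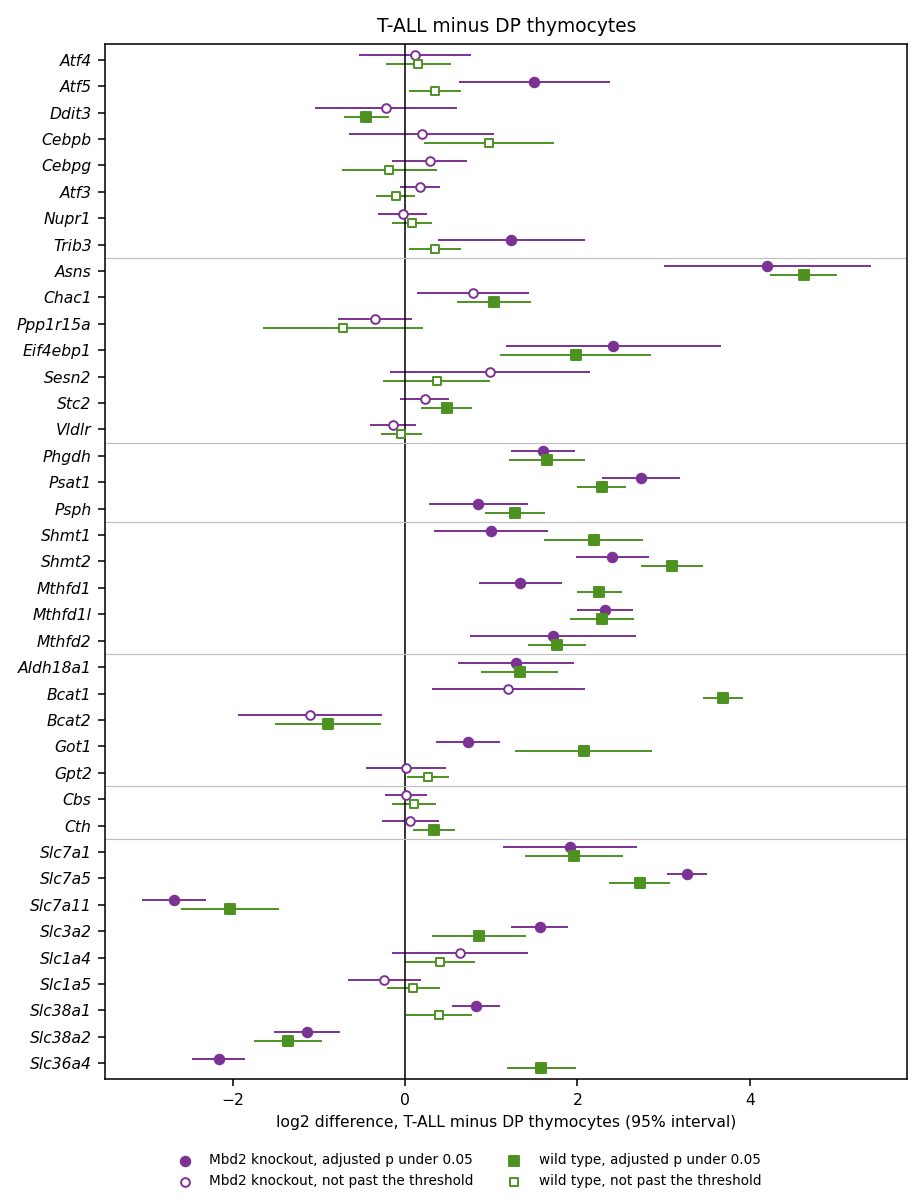
Log2 difference between T-ALL and DP thymocytes with its 95% interval (x axis) for each member (y axis), in knockout cells (purple circles) and wild-type cells (green squares). Filled symbols passed an adjusted p of 0.05, and the 8 serine and folate enzymes are filled and above 0 in both genotypes.

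Few regulators of the response passed between leukaemia and thymocyte. Of 8, 2 were higher in knockout T-ALL (Atf5, a leucine zipper factor whose translation is controlled like that of ATF4, and Trib3, a pseudokinase that is induced by ATF4 and restrains it), and none was lower. Both calls were lost without any 1 of the 3 knockout DP arrays. In wild-type T-ALL 1 was lower than in wild-type DP (Ddit3, the stress factor also called CHOP) and none was higher. With the replicate number as a block, Atf5, Cebpb and Trib3 were also higher in wild-type T-ALL (adjusted p = 0.0237, 0.0168 and 0.0154 in limma). These genes were higher there too with quantile normalization or with the Gapdh ratio as covariate. Atf4 transcript averaged 2565 ± 727 in knockout T-ALL and 2349.9 ± 629 in knockout DP, and 2627 ± 244 in wild-type T-ALL and 2381 ± 462 in wild-type DP (SD, n = 3 each), with overlapping arrays in both pairs. The 95% interval of its log2 difference reached 0.77 in knockout and 0.54 in wild-type cells, so that these arrays do not show equal levels. Arrays measure transcript only, and ATF4 is controlled mainly in its translation.

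Ddit3 was at 321, 188 and 577 in knockout T-ALL, against 431, 360.2 and 365 in knockout DP. It was at 251, 259 and 296 in wild-type T-ALL, against 348, 404 and 364 in wild-type DP. The wild-type groups did not overlap and the knockout groups did, with the highest and the lowest value both in knockout T-ALL. Its log2 difference was -0.45 in wild-type cells (SE 0.11, adjusted p = 0.0183) and -0.22 in knockout cells (SE 0.35, adjusted p = 0.724). Another probe set of Ddit3 gave 0.19 in wild-type cells, so that the direction rests on the probe set chosen. The call of Ddit3 was also lost without wild-type T-ALL replicate 1 or 2 or wild-type DP replicate 2. Atf5 averaged 533 ± 339 in knockout T-ALL and 157 ± 5.58 in knockout DP, with a log2 difference of 1.498 (SE 0.37). Cebpb, a C/EBP family factor, averaged 331 ± 157 in knockout T-ALL and 278 ± 89.7 in knockout DP, and 529 ± 39.8 in wild-type T-ALL and 281 ± 120 in wild-type DP. It passed in neither pair in the main fit, which has no block or covariate (adjusted p = 0.762 and 0.0539). In wild-type cells it passed in several other settings, such as quantile normalization (0.998) or without wild-type DP replicate 3 (0.57). Cebpg, another C/EBP factor, did not pass, and the stress-induced factors Atf3 and Nupr1 were under background everywhere.

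Among 7 response targets, Asns and Eif4ebp1 were higher in both leukaemias, and Chac1 and Stc2 in wild-type T-ALL only by the test. Asns makes asparagine from aspartate and glutamine. It was at 694, 629 and 2376 in knockout T-ALL, against 62.2, 39.3 and 24.4 in knockout DP. It was at 952, 1139 and 1484 in wild-type T-ALL, against 32.4, 31.0 and 32.95 in wild-type DP. Every leukaemia array lay above every thymocyte array, and all 3 wild-type thymocyte arrays were under background. The log2 difference was 4.20 in knockout cells (SE 0.51, adjusted p = 0.000867). In wild-type cells Asns was at least 33.2-fold higher in T-ALL (adjusted p = 9.22e-06). Such a bound divides the geometric mean of the brighter group by the background level, or by the dimmer array's own value where that is higher. A second Asns probe set passed in both comparisons, with all 6 thymocyte arrays under background.

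Eif4ebp1, which encodes a repressor of cap-dependent translation, was at 460.3, 269.7 and 1439 in knockout T-ALL, against 100.5, 87.4 and 91.7 in knockout DP. It was at 305, 249 and 591 in wild-type T-ALL, against 70.2, 52.5 and 127 in wild-type DP. No array of a leukaemia overlapped the thymocytes, although replicate 3 was the highest of its group in both leukaemias. The log2 difference was 2.42 in knockout cells (SE 0.53, adjusted p = 0.0124) and 1.98 in wild-type cells (SE 0.37, adjusted p = 0.00581). Of its 2 other probe sets 1 gave similar values and 1 gave none (0.02 in knockout and -0.0048 in wild-type cells). Chac1, an enzyme that degrades glutathione, averaged 72.4 ± 35.2 in knockout T-ALL and 32.9 ± 7.14 in knockout DP, and was at least 1.94-fold higher in wild-type T-ALL than in wild-type DP. Stc2, a secreted glycoprotein, differed by 0.48 in wild-type cells (SE 0.12, adjusted p = 0.0218) and by 0.23 in knockout cells. Its wild-type call was lost without any 1 of 4 arrays, namely wild-type T-ALL replicates 2 and 3 and wild-type DP replicates 1 and 2. Ppp1r15a, the phosphatase subunit that reverses eIF2 alpha phosphorylation, and Sesn2, a leucine sensor upstream of mTORC1, passed in neither pair in the main fit. In wild-type T-ALL with the replicate block Ppp1r15a was lower (-0.72) and Sesn2 higher (0.37). Ppp1r15a was also lower there with the Gapdh ratio as covariate (-0.87) or without wild-type DP replicate 3 (-1.16). Sesn2 was higher in knockout T-ALL without knockout T-ALL replicate 1 (1.49). Vldlr, a lipoprotein receptor, was under background.

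The C/EBP-ATF composite element is the site through which ATF4 and a C/EBP partner act on several of these genes. The motif TGATGNAA, in which N is any base, was searched on both strands of the RefSeq promoters of GRCm38.p6, each 300 bases long with 250 before the transcription start and 50 after it. A promoter was listed for 35 of the 40 members, and 10 of them (28.6%) held the motif, beside 4.51% of 27025 genes with a promoter. The 10 were Asns, Atf3, Chac1, Got1, Nupr1, Pycr1, Slc1a4, Slc7a11, Trib3 and Vldlr. A match is a description of the letters, and no match says only that these letters are not in this window. Of the 9 with a probe set, Asns and Got1 were higher in both leukaemias than in thymocytes, Chac1 in wild-type and Trib3 in knockout cells, and Slc7a11 was lower in both. Of the 25 without the motif, 12 were higher and 2 lower in knockout cells, and 14 higher and 3 lower in wild-type cells. The promoters of Asns, Slc7a11 and Got1 are shown, as those with the motif among the members with the largest differences or with a call between genotypes. Capitals mark TGATGNAA or its reverse complement, and each promoter is on the minus strand of its chromosome and is written 5′ to 3′ along the gene.
Asns, chr6:7693160-7693459: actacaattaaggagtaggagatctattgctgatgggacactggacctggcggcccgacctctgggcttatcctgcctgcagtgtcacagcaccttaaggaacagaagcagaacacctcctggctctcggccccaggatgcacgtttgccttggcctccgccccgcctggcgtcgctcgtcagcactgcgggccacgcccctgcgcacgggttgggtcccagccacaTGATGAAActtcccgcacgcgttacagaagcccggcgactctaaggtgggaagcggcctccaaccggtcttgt
Slc7a11, chr3:50443564-50443863: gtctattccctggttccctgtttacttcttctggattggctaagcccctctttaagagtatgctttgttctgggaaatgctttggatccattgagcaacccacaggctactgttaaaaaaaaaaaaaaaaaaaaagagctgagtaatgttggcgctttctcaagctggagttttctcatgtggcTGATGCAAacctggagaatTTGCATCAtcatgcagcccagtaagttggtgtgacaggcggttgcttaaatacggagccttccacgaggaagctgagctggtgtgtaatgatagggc
Got1, chr19:43524556-43524855: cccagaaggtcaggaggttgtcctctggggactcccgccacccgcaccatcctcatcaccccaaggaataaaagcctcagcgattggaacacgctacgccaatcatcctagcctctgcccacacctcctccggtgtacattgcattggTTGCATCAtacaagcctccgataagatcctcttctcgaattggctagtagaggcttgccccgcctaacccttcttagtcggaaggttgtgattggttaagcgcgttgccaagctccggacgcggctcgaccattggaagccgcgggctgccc
The match in the Asns promoter ends 16 bases before the transcription start, and that in the Got1 promoter 95 bases before it, on the opposite strand. The Slc7a11 promoter holds 1 match on each strand, ending 59 and 40 bases before the start.

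Transcripts of the serine synthesis enzymes were higher in leukaemia at all 3 steps. Psat1, the transaminase of the pathway, was at 2299.9, 3131 and 3024 in knockout T-ALL, against 426, 318 and 488 in knockout DP. It was at 2208, 2107 and 1936 in wild-type T-ALL, against 478, 396 and 379 in wild-type DP. The leukaemia arrays lay far above the thymocyte arrays in both genotypes. The log2 difference of Psat1 was 2.74 in knockout cells (SE 0.19, adjusted p = 6.78e-05) and 2.28 in wild-type cells (SE 0.12, adjusted p = 3.23e-05). Phgdh, the enzyme of the committed step, averaged 5379.9 ± 924 in knockout T-ALL and 1758 ± 206 in knockout DP, and 5161 ± 427 in wild-type T-ALL and 1666 ± 429 in wild-type DP. Its 3 other probe sets passed in the same direction in both genotypes. Psph, the phosphatase that releases serine, differed by 0.85 in knockout cells (SE 0.24, adjusted p = 0.036) and by 1.28 in wild-type cells (SE 0.15, adjusted p = 0.000685). Its knockout call was lost without knockout T-ALL replicate 1 or 3 or knockout DP replicate 1 or 2.

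All 5 folate enzymes were higher in both leukaemias, with a median log2 difference of 1.72 in knockout and 2.26 in wild-type cells. Shmt2 transfers the carbon of serine to folate in mitochondria. It was at 1178, 1243 and 1833 in knockout T-ALL, against 248, 231 and 270.1 in knockout DP. It was at 1692, 2426 and 2145 in wild-type T-ALL, against 242, 237 and 203 in wild-type DP. The log2 difference of Shmt2 was 2.40 in knockout cells (SE 0.18, adjusted p = 9.59e-05) and 3.10 in wild-type cells (SE 0.15, adjusted p = 2.52e-05), with no overlap of arrays.

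Mthfd1l and Mthfd2, which carry the carbon on towards formate in mitochondria, followed the same order. Mthfd1l was at 1285, 1376 and 1074 in knockout T-ALL, against 206, 239.6 and 263 in knockout DP. It was at 1163, 1146 and 944 in wild-type T-ALL, against 258, 198 and 178 in wild-type DP. These levels gave a log2 difference of 2.32 in knockout and 2.28 in wild-type cells, with no overlap of arrays. Mthfd2 was at 846, 421 and 1402 in knockout T-ALL, against 217, 185 and 306 in knockout DP. It was at 979, 1051 and 823 in wild-type T-ALL, against 313, 243 and 251 in wild-type DP. The knockout leukaemias spread widely for Mthfd2, and its log2 difference was 1.72 in knockout cells (SE 0.41, adjusted p = 0.0178) and 1.76 in wild-type cells (SE 0.14, adjusted p = 0.000148). The knockout call of Mthfd2 was lost without knockout T-ALL replicate 1 or knockout DP replicate 1 or 2.

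The cytosolic folate enzymes Shmt1 and Mthfd1 were also higher in both leukaemias than in thymocytes. Shmt1 was at 254, 339.7 and 519 in knockout T-ALL, against 234, 151 and 139 in knockout DP. It was at 781, 458 and 659 in wild-type T-ALL, against 105, 104 and 169 in wild-type DP. Its log2 difference was 1.00 in knockout cells (SE 0.28, adjusted p = 0.0348) and 2.19 in wild-type cells (SE 0.24, adjusted p = 0.00057). The knockout call of Shmt1 was lost without knockout T-ALL replicate 2 or 3 or knockout DP replicate 2 or 3, while its 3 other probe sets passed in the same direction. Mthfd1, a trifunctional enzyme that loads formate onto folate, was at 724, 1077 and 1191 in knockout T-ALL, against 440.4, 329 and 366 in knockout DP. It was at 1648, 1477 and 1612 in wild-type T-ALL, against 317, 287 and 351 in wild-type DP. Mthfd1 differed by 1.34 in knockout cells (SE 0.20, adjusted p = 0.00249) and by 2.26 in wild-type cells (SE 0.11, adjusted p = 2.42e-05).

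Of the other amino acid enzymes, Aldh18a1 and Got1 were higher in both leukaemias. Aldh18a1, which starts proline synthesis, averaged 863 ± 409 in knockout T-ALL and 322 ± 23.9 in knockout DP, and 857 ± 217 in wild-type T-ALL and 323 ± 1.69 in wild-type DP. In knockout cells the call of Aldh18a1 was lost without knockout DP replicate 3, and that of Got1 without knockout DP replicate 2. Bcat2, the mitochondrial branched-chain aminotransferase, was at 52.1, 90.03 and 53.5 in knockout T-ALL, against 80.7, 217 and 202 in knockout DP. It was at 73.8, 81.6 and 56.8 in wild-type T-ALL, against 178, 183 and 89.3 in wild-type DP. Its knockout groups overlapped and its wild-type groups did not, with a log2 difference of -1.10 in knockout cells (SE 0.35, adjusted p = 0.0563) and -0.89 in wild-type cells (SE 0.26, adjusted p = 0.0356). The wild-type call of Bcat2 was lost without any 1 of the 5 arrays other than wild-type DP replicate 3. Gpt2, the mitochondrial alanine aminotransferase, passed in neither pair with the probe set of highest mean. Of its 3 other probe sets, 1 passed above thymocytes in knockout cells (0.88) and 2 in wild-type cells (1.08 and 1.07), all with the thymocyte arrays under background. Cbs, a transsulfuration enzyme, passed in neither pair.

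Of 9 carriers, 4 were higher and 3 lower in knockout T-ALL than in knockout DP, and 4 were higher and 2 lower in wild-type T-ALL than in wild-type DP. Slc7a5 is the light chain of the exchanger that imports leucine and other large neutral amino acids, and Slc3a2 is its heavy chain. Slc7a5 was at 2069.7, 1977 and 2194 in knockout T-ALL, against 190.4, 203 and 208 in knockout DP. It was at 1283, 1171 and 1141 in wild-type T-ALL, against 189, 187 and 132 in wild-type DP. Every leukaemia array lay above every thymocyte array, and the log2 difference was 3.27 in knockout cells (SE 0.10, adjusted p = 2.79e-06) and 2.73 in wild-type cells (SE 0.15, adjusted p = 3.6e-05). Slc3a2 was at 1935, 2029.7 and 1869 in knockout T-ALL, against 542, 657 and 761 in knockout DP. It was at 1515, 1408 and 1079 in wild-type T-ALL, against 829, 881 and 512 in wild-type DP. Slc3a2 differed by 1.56 in knockout cells (SE 0.14, adjusted p = 0.00021) and by 0.86 in wild-type cells (SE 0.23, adjusted p = 0.0255), a call lost without wild-type T-ALL replicate 1 or 2.

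Slc7a1, the carrier of arginine and lysine, was at 1737, 1745 and 3884 in knockout T-ALL, against 728, 469 and 600.1 in knockout DP. It was at 2193, 1901 and 2456 in wild-type T-ALL, against 525, 393 and 779.9 in wild-type DP. Both leukaemias lay above both thymocyte groups, with a log2 difference of 1.92 in knockout cells (SE 0.33, adjusted p = 0.00425) and 1.96 in wild-type cells (SE 0.24, adjusted p = 0.00088). Of its 2 other probe sets 1 gave 2.01 in knockout and 2.22 in wild-type cells, and 1 was under background on all 12 arrays. Slc38a1, a sodium-coupled carrier of glutamine and other neutral amino acids, was at 2977, 3379 and 3726 in knockout T-ALL, against 1841, 1827 and 1988 in knockout DP. It was at 2388, 2285 and 2288 in wild-type T-ALL, against 1605, 1499 and 2252 in wild-type DP. Slc38a1 differed by 0.82 in knockout cells (SE 0.12, adjusted p = 0.0018) and by 0.40 in wild-type cells (SE 0.16, adjusted p = 0.106). The other Slc38a1 probe set passed in wild-type cells too (0.43, adjusted p = 0.0455 in limma). In some other settings, such as the Gapdh ratio as covariate (0.45), Slc38a1 also passed there.

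Its relative Slc38a2, which is itself an ATF4 target in starved cells, ran the other way. Slc38a2 was at 2827, 2820 and 3835 in knockout T-ALL, against 7488, 7386 and 5918 in knockout DP. It was at 2079, 2301 and 3000 in wild-type T-ALL, against 5404, 6430 and 7035 in wild-type DP. The log2 difference was -1.14 in knockout cells (SE 0.16, adjusted p = 0.00193) and -1.36 in wild-type cells (SE 0.17, adjusted p = 0.000927), and its 2 other probe sets passed in the same direction in both. Slc7a11 is the light chain of the exchanger that imports cystine for glutathione synthesis. It was at 18.0, 18.0 and 25.5 in knockout T-ALL, against 267, 205 and 186 in knockout DP. It was at 18.7, 23.0 and 23.9 in wild-type T-ALL, against 115, 215 and 105 in wild-type DP. Every leukaemia array was under background and every thymocyte array above it. Slc7a11 was at least 6.15-fold lower in knockout T-ALL than in knockout DP (adjusted p = 3.32e-05) and at least 3.90-fold lower in wild-type T-ALL than in wild-type DP (adjusted p = 0.000774). The neutral amino acid carriers Slc1a4 and Slc1a5 passed in neither pair in the main fit. In wild-type T-ALL Slc1a4 was higher with the replicate block (0.41). It also was with the mean of its probe sets (0.27), the poly-A control as a block (0.41) or the Gapdh ratio as covariate (0.48).

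The knockout and wild-type leukaemias were compared next. The carriers Slc7a5, Slc38a1 and Slc3a2 were higher in knockout T-ALL, and 3 members were lower (Slc36a4, Bcat1 and Got1). Of all genes tested 9.19% were higher and 6.98% lower in this comparison (16.2% in either direction), and the members' share of 7.69% each way lay near this background. At an unadjusted p under 0.05, 6 members were higher and 9 lower, beside 29% of all genes in either direction. The median log2 difference of the members was -0.05, beside -0.06 for all genes tested. No regulator, response target, serine enzyme or folate enzyme passed in the main fit. With the replicate number as a block, 6 members were higher and 6 lower, beside 12.5% and 12.6% of all genes. The block added Atf5, Trib3 and Slc38a2 to the higher and Psph, Shmt2 and Mthfd1 to the lower members, and it lost none. Mthfd1 was lower also with centring on the 75th percentile (-0.76), the mean of probe sets (-0.66), the Gapdh ratio as covariate (-0.79) or all 12 arrays in 1 fit (-0.68). Atf5 was higher also with all 12 arrays (1.22) or an added constant of 1 (1.28). Slc3a2 or Slc38a1 lost its call in some of these settings.

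**Figure D3:**
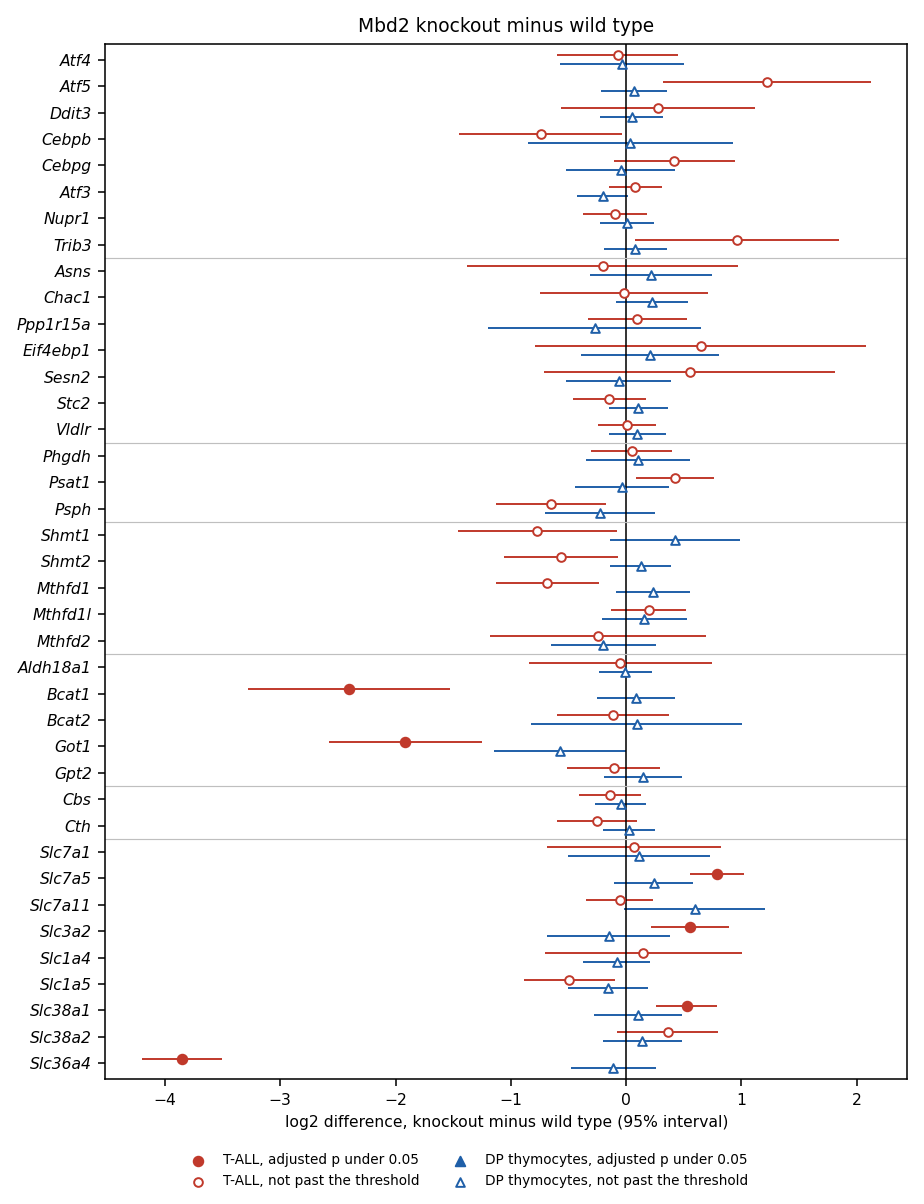
Log2 difference between knockout and wild type with its 95% interval (x axis) for each member (y axis), in T-ALL (red circles) and in DP thymocytes (blue triangles). Filled symbols passed an adjusted p of 0.05: 3 members above 0 and 3 below it in T-ALL, and none in thymocytes.

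Slc36a4 showed the largest difference of any member between the leukaemias. It encodes a carrier of proline and tryptophan. Its level was 11.7, 11.3 and 12.03 in knockout T-ALL, against 475, 367 and 325 in wild-type T-ALL. Its level was 98.5, 96.3 and 132 in knockout DP, against 139.98, 103 and 113 in wild-type DP. All 3 knockout leukaemias were under background while the 9 other arrays were above it. Slc36a4 was at least 10.9-fold lower in knockout than in wild-type T-ALL (adjusted p = 1.38e-05). It was also at least 3.06-fold lower in knockout T-ALL than in knockout DP (adjusted p = 3.81e-05), while wild-type T-ALL stood above wild-type DP by 1.58 on the log2 scale (SE 0.17, adjusted p = 0.000488). It has no other probe set of its own on the array. Its promoter had 32 CpG dinucleotides in 300 bases, beside a median of 20 over the members' promoters and 7 over all promoters.

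Bcat1, the cytosolic branched-chain aminotransferase, is linked with leukaemia cell growth in earlier work on other leukaemias. It was at 59.6, 41.7 and 153 in knockout T-ALL, against 496, 453 and 442 in wild-type T-ALL. It was at 31.4, 17.5 and 22.7 in knockout DP, against 21.2, 19.0 and 23.2 in wild-type DP. All 6 thymocyte arrays were under background, and the wild-type leukaemias lay above the knockout leukaemias. The log2 difference between the leukaemias was -2.41 (SE 0.37, adjusted p = 0.00543), and both other Bcat1 probe sets passed in the same direction, at -1.42 and -1.15. Against thymocytes, Bcat1 was at least 13.1-fold higher in wild-type T-ALL (adjusted p = 4.59e-06). In knockout T-ALL this probe set was at least 2.06-fold higher without passing the threshold (adjusted p = 0.0512), with replicate 3 the highest. Both others showed little difference between knockout T-ALL and knockout DP, at 0.04 and 0.13 on the log2 scale, the last under background in both groups.

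Got1, the cytosolic aspartate aminotransferase, was at 182, 162 and 178 in knockout T-ALL, against 1029, 749 and 445 in wild-type T-ALL. It was at 82.7, 89.7 and 128 in knockout DP, against 198, 176 and 104 in wild-type DP. The knockout leukaemias lay close together below all wild-type leukaemias, and the thymocyte groups overlapped. Its log2 difference was -1.92 between the leukaemias (SE 0.28, adjusted p = 0.00433) and -0.57 between the thymocytes (SE 0.24, adjusted p = 0.982). Against thymocytes Got1 was higher by 0.73 in knockout T-ALL (SE 0.16, adjusted p = 0.0116) and by 2.07 in wild-type T-ALL (SE 0.33, adjusted p = 0.003).

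Slc7a5 rose in knockout T-ALL by 0.79 on the log2 scale over wild-type T-ALL (SE 0.10, adjusted p = 0.00225), and the arrays of the 2 groups, given above, did not overlap. Its partner Slc3a2 rose by 0.55 (SE 0.14, adjusted p = 0.0431) and Slc38a1 by 0.53 (SE 0.11, adjusted p = 0.021), also without overlap. The last 2 calls were close to the threshold. Slc3a2 lost its call without any 1 array other than wild-type T-ALL replicate 1, and Slc38a1 without any 1 array other than knockout T-ALL replicate 1. The other Slc38a1 probe set did not pass between the leukaemias (0.44, adjusted p = 0.162 in limma). Arrays of the 2 leukaemias did not overlap for 6 members on each side, beside 15% of all genes higher and 18.4% lower. The members that stood apart without passing were Atf5 (log2 difference 1.22), Trib3 (0.96) and Psat1 (0.42) above, and Psph (-0.65), Mthfd1 (-0.68) and Slc1a5 (-0.49) below.

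**Figure D4:**
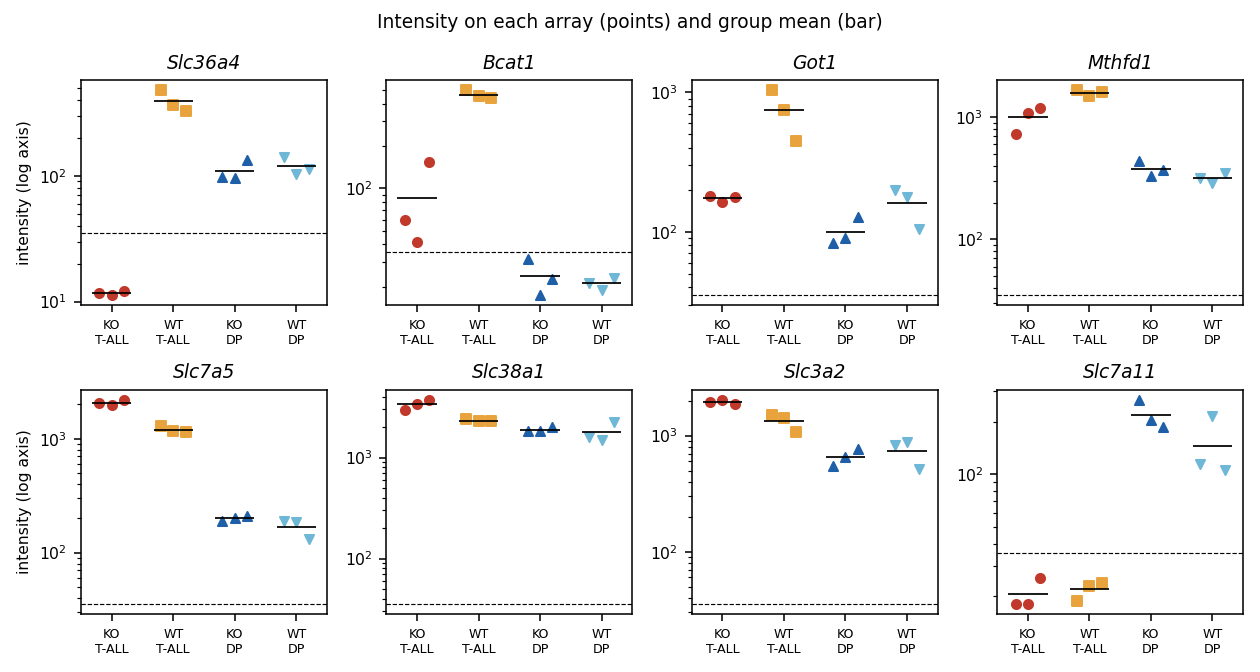
Intensity on each array (points, log y axis) and the group mean (bar) for 8 members, with knockout T-ALL, wild-type T-ALL, knockout DP and wild-type DP from left to right and the dashed line at the background level of 35.3. Slc36a4 lies under the line in knockout T-ALL, and Slc7a11 in both leukaemias.

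Between knockout and wild-type DP thymocytes no member passed in limma, and none had an unadjusted p under 0.05, beside 0.0324% of all genes tested (0.0195% higher and 0.013% lower) and 4.68%. The log2 differences of the 39 members lay between -0.57 (Got1) and 0.60 (Slc7a11), with a median of 0.07. These values are of the probe sets of highest mean. The other Slc7a11 probe set gave 1.01 (SE 0.25, unadjusted p = 0.00497 and adjusted p = 0.823 in limma). It was at 248, 289 and 206 in knockout DP, against 74.2, 165 and 117 in wild-type DP. The groups' arrays were apart for 1 member on each side (Slc7a5 above and Atf3, under background, below), beside 4.06% and 4.58% of all genes.

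Whether the effect of Mbd2 loss differed between leukaemia and thymocyte was tested as the knockout minus wild-type difference in T-ALL less that in DP, over all 12 arrays. It was lower for 3 members and higher for none, beside 4.74% and 7.86% of all genes tested (12.6% in either direction). At an unadjusted p under 0.05, 4 members were higher and 6 lower, beside 23.4% of all genes in either direction. The 3 were Slc36a4 (-3.74, SE 0.22, adjusted p = 6.93e-07), Bcat1 (-2.49, SE 0.43, adjusted p = 0.00236) and Mthfd1 (-0.92, SE 0.24, adjusted p = 0.0294). The values of Slc36a4 and Bcat1 rest on levels under background, in knockout T-ALL for Slc36a4 and in both thymocyte groups for Bcat1, and are not exact. Both other Bcat1 probe sets passed too. Mthfd1 was not called between the leukaemias themselves (-0.68, SE 0.19, adjusted p = 0.0536) and differed by 0.23 between the thymocytes. Its 2 other probe sets gave -0.81 and -0.86 without passing. The call of Mthfd1 was lost without any 1 of the 3 wild-type T-ALL arrays, without knockout DP replicate 1 or 3 and without wild-type DP replicate 1 or 2. Got1 missed the threshold in this test (-1.34, SE 0.40, adjusted p = 0.0525), as did Slc7a5 (0.55, SE 0.18, adjusted p = 0.0683) and Shmt1 (-1.19, SE 0.41, adjusted p = 0.0885). Of the 3 other Shmt1 probe sets 1 passed (-0.94, adjusted p = 0.0106). The other Slc7a11 probe set passed as well (-1.03, adjusted p = 0.0433), with both leukaemias under background, while the probe set of highest mean gave -0.65 (adjusted p = 0.239).

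The knockout leukaemias differed among themselves in these genes more than the other groups did. This pattern was picked out after the values were seen. On knockout T-ALL replicate 3, 15 of 39 members (38.5%) were more than 0.5 on the log2 scale above both other knockout T-ALL arrays, beside 3.10% of all genes tested on that array. On the 11 other arrays between 0 and 3 members stood above their group by as much. Below both others on knockout T-ALL replicate 2 were 5 members (12.8%), beside 4.53% of all genes. They were Atf4, Ddit3, Eif4ebp1, Psph and Mthfd2. Wild-type DP replicate 3 also had 5 members below its group, beside 7.94% of all genes. The 15 above on knockout T-ALL replicate 3 included 4 of 8 regulators (Atf5, Ddit3, Cebpb and Trib3), 4 of 7 response targets (Asns, Chac1, Eif4ebp1 and Sesn2) and 3 of 5 folate enzymes (Shmt1, Shmt2 and Mthfd2). Aldh18a1, Bcat1, Slc7a1 and Slc1a4 made up the rest. By its probe set of highest mean, no serine synthesis enzyme was among them. No member was lower by as much on knockout T-ALL replicate 3. These gaps are of the probe sets of highest mean. No other probe set of Cebpb, Eif4ebp1, Sesn2, Shmt1, Bcat1 or Slc1a4 had such a gap. Another Shmt1 probe set was at 409, 516 and 394 in knockout T-ALL, in the order of the replicates. Another probe set of Ddit3, Trib3, Asns, Shmt2, Mthfd2, Aldh18a1 and Slc7a1 had the gap, though further ones of Shmt2, Aldh18a1 and Slc7a1 did not. Some members outside the 15 also had the gap with another probe set. Among them were the serine synthesis enzymes Psat1 (1013, 1291 and 2513) and Phgdh (1422, 1507 and 2327). The same held for Atf4, Stc2, Gpt2, Slc1a5 and Slc38a2. Further probe sets of Phgdh, Atf4, Stc2, Gpt2 and Slc38a2 did not have the gap. Of the members with a listed promoter, the 15 took in 4 of 9 that hold TGATGNAA and 10 of 25 that do not.

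**Figure D5:**
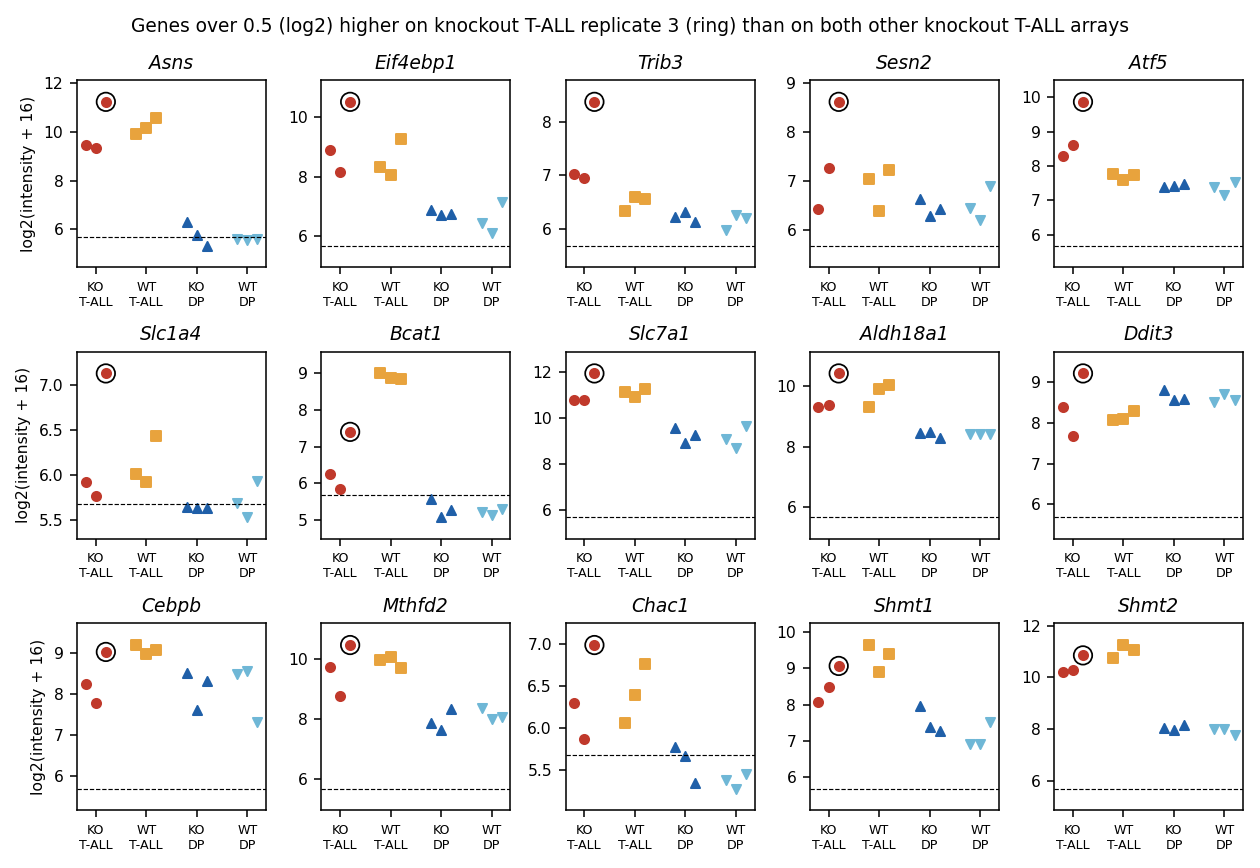
Level of the 15 members on each array as log2(intensity + 16), 1 panel per gene, with knockout T-ALL, wild-type T-ALL, knockout DP and wild-type DP from left to right and the background level as a dashed line. The ringed point is knockout T-ALL replicate 3, which is over 0.5 above both other knockout T-ALL arrays in every panel, as the genes were chosen for this.

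The gap to the higher of the 2 other arrays was 1.75 for Asns, 1.61 for Eif4ebp1, 1.35 for Trib3 and 1.24 for Atf5. Atf5 was at 298, 379.8 and 921 in knockout T-ALL, against 204, 179 and 199 in wild-type T-ALL. Trib3 was at 115, 108 and 317 in knockout T-ALL, against 64.2, 80.1 and 78.3 in wild-type T-ALL. Both genes were thus above wild-type T-ALL on all 3 knockout arrays, with replicate 3 the furthest. Sesn2 was at 69.8, 138 and 375 in knockout T-ALL, against 115, 67.8 and 134 in wild-type T-ALL, and Ddit3 was likewise above the wild-type arrays on replicate 3. Atf4 was at 2783, 1754 and 3158 in knockout T-ALL, a gap under the limit of 0.5. Another Atf4 probe set was at 391, 356 and 858 there, a gap over that limit. Of the aminoacyl-tRNA synthetases, 5 of 19 (Cars, Gars, Hars, Nars and Yars) stood out upwards on knockout T-ALL replicate 3. None of 18 further folate and methionine cycle genes and 2 of 15 endoplasmic reticulum stress genes did so, together with Eif2ak2, Gclm and Slc7a3 of the remaining lists. Below both other arrays by as much were 3 of those 18 (Mat2b, Mtfmt and Dld) and 1 of the 15 (Edem1), together with Eif2ak3, Got2 and Sesn1 of the remaining lists. Hars stood out upwards also on replicate 3 of wild-type T-ALL and of wild-type DP and on knockout DP replicate 1. Eif2ak3 and Mtfmt were lower by as much also on replicate 3 of wild-type T-ALL and of wild-type DP.

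The ratio of 3′ to 5′ Gapdh control probe sets, a measure of RNA integrity, was 0.964, 2.00 and 2.98 on the knockout T-ALL arrays in the order of the replicates, against 0.969, 1.02 and 2.48 in wild-type T-ALL. Myc was at 599, 911 and 259 in knockout T-ALL, against 919, 857 and 328 in wild-type T-ALL. Replicate 3 thus had the highest ratio and the lowest Myc level of both groups. Of the probe sets of highest mean, only that of Eif4ebp1 stood out upwards on wild-type T-ALL replicate 3. Other probe sets stood out there too. Among them were those of Asns (285, 349 and 692 in wild-type T-ALL), Atf4 (310, 413 and 1048), Psat1 (996, 982 and 1620) and Gpt2. The ratio was 3.33, 2.10 and 1.12 in knockout DP, and 1.08, 1.14 and 3.68 in wild-type DP. By the probe sets of highest mean, Eif4ebp1, Shmt1 and Slc7a1 stood out upwards on wild-type DP replicate 3, and Cebpb, Ppp1r15a, Bcat2, Got1 and Slc3a2 downwards. By the same measure Shmt1 stood out upwards and Bcat2 downwards on knockout DP replicate 1. The part of RNA integrity in the pattern was not tested.

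Without knockout T-ALL replicate 3, 2 members were higher in knockout than in wild-type T-ALL and 8 were lower, beside 9.29% and 6.47% of all genes. Slc7a5 kept its call and Atf5 gained one (0.75), while Slc3a2 and Slc38a1 lost theirs. Slc36a4, Bcat1 and Got1 kept theirs, and Cebpb (-1.08), Asns (-0.81), Shmt1 (-1.03), Shmt2 (-0.76) and Mthfd1 (-0.82) gained one. Asns differed by -0.20 with all 6 arrays, so that this array decides its value. For Shmt1, 2 of 3 other probe sets passed on the lower side with all 6 arrays, and for Mthfd1 1 of 2. Against knockout DP, 17 members were higher and 3 lower without that array, beside 18 and 3 with it.

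Other genes of the pathway were read from lists that do not overlap the members. Aminoacyl-tRNA synthetases, which charge tRNA and include ATF4 targets, were higher for 17 of 19 genes in knockout T-ALL and 16 of 19 in wild-type T-ALL than in thymocytes, with medians of 1.13 and 1.09. Vars, for valine, differed by 2.13 in knockout cells (SE 0.18) and 2.25 in wild-type cells (SE 0.14). None of the 19 passed between the leukaemias, where their median was -0.18. Of 18 folate and methionine cycle genes, 9 were higher and 2 lower in knockout T-ALL, and 10 higher and 1 lower in wild-type T-ALL, than in thymocytes. Gcsh, of the glycine cleavage system, differed by 2.36 and 2.98, and Gart, of purine synthesis, by 1.75 and 2.25, in knockout and wild-type cells. Between the leukaemias 4 of the 18 were lower in knockout T-ALL and none higher: Aldh1l1 (-0.95), Slc25a32 (-0.84), the reduced folate carrier Slc19a1 (-0.71) and Mtrr (-0.63). None of these passed the test of the difference of effects.

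Among 7 genes for eIF2 alpha kinases, their partners and its phosphatase, Eif2ak3, the kinase of the endoplasmic reticulum, was lower in both leukaemias than in thymocytes (-1.06 in knockout and -1.48 in wild-type cells). Eif2ak4, which encodes GCN2, was higher in knockout T-ALL by 0.48 (SE 0.12). Gsr, which regenerates reduced glutathione, was at 356, 313 and 321 in knockout T-ALL, against 949, 962 and 1051 in wild-type T-ALL (-1.54, SE 0.10, adjusted p = 0.000135). Slc7a8, a close relative of Slc7a5 that also pairs with Slc3a2, was at 87.7, 133 and 73.7 in knockout T-ALL and under background, at 5.96, 6.70 and 8.29, in wild-type T-ALL (adjusted p = 0.000362). Deptor, an inhibitor of mTOR, was at 2301, 3071 and 2983 in knockout T-ALL, against 807, 396 and 765 in wild-type T-ALL (2.11, SE 0.28, adjusted p = 0.00282).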

How the data were processed

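Total RNA (7 µg) of 12 samples was labelled as biotin cRNA and hybridised to 1 array each, per the labels. The authors deposited 1 intensity per probe set on a linear scale, from 3.07 to 21619.6. How probe signals were summarized, background-corrected or normalized is not given in the sources used here. No detection calls were used. The median log2 value of an array was 5.71 to 5.79, and no further normalization was applied to the deposited log2-transformed values.

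Of 45101 probe sets, 34945 had 1 gene in the array annotation, 932 several and 9160 none, with 64 controls. Each gene took its probe set of highest mean. A gene was tested if it exceeded the array's 25th percentile on 3 or more arrays. Tests used limma 3.58.1 (R 4.3.3; lmFit, then eBayes) on log2(intensity + 16), each pair of groups in its own fit and the difference of effects over all 12 arrays. P-values were adjusted over all 15420 genes tested by Benjamini-Hochberg. The number of arrays limits the precision, and arrays of a group correlated at 0.979 to 0.993. The script was tested on simulated data.

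The members, the lists and the rule for named genes were chosen with earlier results of these data known. The rule gives array values for members past the threshold between genotypes, or with the largest differences (up to 8 per direction) against thymocytes, and up to 4 genes of each other list. The promoters shown are those of such members that hold TGATGNAA.

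Same-numbered samples deviated together between the leukaemias (correlation of deviations 0.401, 0.235 and 0.549) and between wild-type T-ALL and wild-type DP (0.445, 0.443 and 0.583). They did not between knockout and wild-type DP (-0.523, 0.145 and -0.494) or knockout T-ALL and knockout DP (-0.391, 0.0937 and -0.428). The labels name no pairing. The Gapdh ratio was highest on replicate 3 of both leukaemias (2.98 in knockout, 2.48 in wild-type) and of wild-type DP (3.68). In knockout DP it was highest on replicate 1 (3.33). Whether the correlations come from paired samples or from RNA integrity was not tested. An added poly-A control gave signal (dap 752 to 3524) on 5 arrays, none of knockout DP, and 4.25 to 6.26 on the 7 others; it was tried as a block. Also tried were centring on the 75th percentile, quantile normalization, other filters and added constants, the mean of a gene's probe sets, eBayes with trend, the Gapdh ratio as covariate, all 12 arrays in 1 fit, each array left out and other probe sets. Figures used matplotlib 3.10.9 under Python 3.11.15.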

Additional observations from a re-analysis of the deposited data

Results flagged for a closer look

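The effect of Mbd2 loss, as a log2 difference between knockout and wild type, differed between T-ALL and DP thymocytes for 3 members in limma over all 12 arrays. For Slc36a4 the effect in T-ALL less that in DP was -3.74, with all 3 knockout T-ALL arrays below all 3 wild-type T-ALL arrays and under background, so that this value is not exact. For Bcat1 it was -2.49, likewise without overlap between the leukaemias and with both thymocyte groups under background, so that this value is not exact either. For Mthfd1 it was -0.92.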

How the results depend on the processing

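Direction held for every call of a member under all settings that kept its probe set. Other probe sets turned Ddit3 (0.19), Eif4ebp1 (-0.0048) and Slc7a1 (-0.029) in wild-type T-ALL against wild-type DP, and Slc7a1 (-0.12) in knockout T-ALL against knockout DP, none of them past the threshold; the Slc7a1 probe set was under background on all 12 arrays, so that its sign has no meaning. Between the leukaemias the 3 higher members became 6 with the replicate block and 1 to 4 with 1 array left out, and the 3 lower became 6 with the block, 5 with centring on the 75th percentile, with the mean of probe sets, with the Gapdh ratio as covariate or with all 12 arrays, and 3 to 8 with 1 array left out. In wild-type T-ALL against wild-type DP the 4 lower members became 2 with all 12 arrays and 2 to 5 with 1 array left out, while the 20 higher ranged over 18 to 22 with 1 array left out; the block added Atf5, Cebpb, Trib3, Sesn2 and Slc1a4 to the higher and Ppp1r15a to the lower members. In knockout T-ALL against knockout DP 12 to 19 members were higher with 1 array left out and 14 to 20 in the other settings. For the difference of effects the 0 higher members became 1 with quantile normalization, the mean of probe sets, an added constant of 64 or the poly-A block, 2 with the Gapdh ratio, and 0 to 2 with 1 array left out; the 3 lower became 5 with centring on the 75th percentile or the Gapdh ratio and 2 to 5 with 1 array left out. Knockout against wild-type DP gave 0 members in every setting. The replicate block changed no other call except Trib3 and Shmt1 (lost) and Bcat2 (gained) in knockout T-ALL against knockout DP, where same-numbered arrays did not deviate together. The cause of these changes was not tested. Signals under background limit Atf3, Nupr1, Vldlr and Cth on all arrays, Cbs on all but 1, Slc7a11 in the leukaemias, Slc36a4 in knockout T-ALL, Bcat1 in both DP groups and Asns in wild-type DP.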
